A study of Mus musculus with 24 samples.

Results

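The comparison described here sets RN2 cells carrying the hairpin shOgdh2081 after 4 days of doxycycline (day 4) against the same clones without doxycycline (day 0). RN2 is a mouse acute myeloid leukaemia line of genotype Mll-Af9; NrasG12D. Members were chosen by hairpin and day from the sample labels, which gave 8 of the 24 libraries of the series: 4 at day 4 and 4 at day 0, from clones 5 and 3, with 2 libraries for each clone and day. The other 16 libraries came from the same line and schedule: shOgdh346, a further hairpin against Ogdh (clones 1 and 5), and shRen713, the control hairpin (clones 2 and 7), each at day 4 and day 0. All hairpins were carried by retroviral vectors and induced by doxycycline, and all cells grew in RPMI medium with fetal bovine serum. Each clone is a single isolate, so a hairpin was represented by 2 isolates, and day 4 differs from day 0 in hairpin induction, in doxycycline and in time in culture. The labels do not say that the 2 libraries of a clone and day came from separate cultures.

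Ogdh encodes the E1 subunit of the 2-oxoglutarate dehydrogenase complex, which oxidises 2-oxoglutarate to succinyl-CoA in the mitochondrial tricarboxylic acid (TCA) cycle. Its partners are DLST, which carries a lipoic acid group, and DLD, which the complex shares with pyruvate dehydrogenase. 2-Oxoglutarate is also the carbon skeleton of glutamate and a substrate of many dioxygenases, among them histone and DNA demethylases. Leukaemia driven by Mll-Af9 is held at an immature myeloid stage by a self-renewal programme that includes the Hoxa genes and Meis1. Maturing neutrophils make the proteins of primary granules early and those of secondary and tertiary granules later, while they leave the cell cycle.

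The files gave whole-number counts of reads per gene. Day 4 libraries held 7209186 and 8106525 counts in clone 5 and 20705468 and 11149957 in clone 3. Day 0 libraries held 12519741 and 10995323 counts in clone 5 and 7665099 and 8615154 in clone 3. The 10 most abundant genes took 4.40% to 6.68% of counts at day 4 and 3.73% to 4.44% at day 0. Libraries of a clone were less alike at day 0 than at day 4: the chi-square per gene between them was 1.6 in clone 5 and 2.94 in clone 3 at day 4, against 10.3 in clone 5 and 9.73 in clone 3 at day 0. The difference between library 2 and library 1 at day 0 ran through the whole series, with correlations across genes of 0.387 to 0.497 over the 15 pairs of clones, against -0.00325 to 0.081 at day 4. Both day 0 libraries of every clone entered each value, and day 0 sums of single libraries are compared in the closing section. Levels are given as CPM, counts scaled to a common library size after TMM scaling, and are compared only within a gene or summed over a list. Where 4 values are listed, the first 2 are libraries 1 and 2 of clone 5 and the others libraries 1 and 2 of clone 3.

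Markers of the labelled cell type were present in all 8 libraries: 8 of 8 reached 1 CPM, among them Ptprc (503 to 698 CPM at day 4 and 320 to 454 CPM at day 0), and Mpo, which spanned 399.6 to 3406 CPM at day 4 and 487 to 3391 CPM at day 0. Of the T cell markers 7 of 8 stayed under 1 CPM in every library and 5 of 8 had no count, and the B cell markers summed to at most 1.35 CPM at day 4 and 1.28 CPM at day 0. The megakaryocyte and platelet list, with none of its 6 genes at 0, summed to 47.8 to 83.3 CPM at day 4, against 5.34 to 9.04 CPM at day 0, most of it from Itga2b (40.9 to 74.2 CPM at day 4 and 3.97 to 7.08 CPM at day 0), with Vwf, Gp1bb and Gp9 also higher at day 4 (log2 changes 2.79, 2.71 and 1.54, adjusted p = 1.0e-04, 2.8e-04 and 0.04), while Pf4 and Ppbp stayed under 1 CPM. The eosinophil list summed to 16.8 to 43.3 CPM at day 4 and 5.24 to 9.84 CPM at day 0, mostly from Siglecf, with Ear1 at 0. The dendritic cell list summed to 14.6 to 76.9 CPM at day 4 and 6.42 to 10.6 CPM at day 0, mostly from Itgax. Its members Flt3 and Xcr1 went the other way (log2 changes -3.82 and -1.69, adjusted p = 2.8e-04 and 0.045). Batf3, Siglech and Zbtb46 stayed under 1 CPM. The fibroblast list (8.04 to 74.1 CPM at day 4 and 3.63 to 30.7 CPM at day 0) was almost wholly Pdgfrb, with Col1a2, Dcn and Lum at 0. Erythroid, mast cell and endothelial lists moved less, with 1.44 to 2.09, 32.9 to 56.2 and 329 to 378 CPM at day 4, against 0.568 to 1.57, 23.04 to 43.5 and 290 to 362 CPM at day 0. The part of these genes in the results below was not tested. Counts of whole cultures cannot tell more expressing cells from more RNA per cell.

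Ogdh (ENSMUSG00000020456, chr11:6291633-6356642, plus strand, GRCm38) measured 32.9 and 38.6 CPM in clone 5 and 69.2 and 71.7 CPM in clone 3 at day 4, against 161 and 169.6 CPM in clone 5 and 178 and 233 CPM in clone 3 at day 0. All 4 day 4 libraries lay below all 4 day 0 libraries. The mean was 52.4 ± 23.6 CPM over the day 4 clones and 187 ± 30.2 CPM over the day 0 clones (SD, n = 2 clones), and the fitted log2 change of -1.89 ± 0.16 (edgeR quasi-likelihood test with clone as block, adjusted p = 6.5e-05) was larger than the spread between clones. The log2 change was -2.22 in clone 5 and -1.59 in clone 3, and clone 5 fell further (difference -0.66 ± 0.14, adjusted p = 0.0071 over libraries). The control hairpin gave 206, 207, 235 and 251 CPM at day 4 and 200.3, 214, 242 and 247 CPM at day 0 in clones 2 and 7. The hairpin shOgdh346 gave 35.8, 35.7, 53.6 and 58.7 CPM at day 4 and 124, 135, 145 and 148 CPM at day 0 in clones 1 and 5.

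The other genes of the complex and of lipoic acid attachment did not move as one. Of 8 tested with Ogdh included, 5 fell and 1 rose, where 25.9% of all 14249 genes tested fell and 27.5% rose at an adjusted p under 0.05. Dlst, the E2 subunit, rose with 356, 346, 470.1 and 465 CPM at day 4, against 304, 299.8, 286 and 285 CPM at day 0 (change of 0.44 ± 0.14 on the log2 scale, adjusted p = 0.025), and all 4 day 4 libraries lay above the day 0 libraries. Dld had a change of -0.10 ± 0.08 (adjusted p = 0.31). Ogdhl, an Ogdh paralog, fell with 4.06, 3.599, 10.4 and 12.3 CPM at day 4, against 14.3, 13.5, 22.7 and 20.1 CPM at day 0 (change of -1.35 ± 0.27 on the log2 scale, adjusted p = 0.0032), and its call was lost without the clone block (adjusted p = 0.185). Lipt2, a lipoyl transferase, fell by 1.19 ± 0.21 (adjusted p = 0.0014), and Lias, the lipoic acid synthase, fell by 0.40 ± 0.089 (adjusted p = 0.0047), both on the log2 scale.

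Across the transcriptome 3914 genes rose and 3693 fell between day 0 and day 4 of shOgdh2081, and the median log2 change over all genes was 0.0093. Large changes were mostly rises: 1799 genes rose and 732 fell more than 2-fold, and 359 rose and 29 fell more than 8-fold. Both clones changed in the called direction for 3906 of the rises and 3686 of the falls. The calls were fitted to these same clones, so this agreement is not a separate result. Of the genes tested, 24.7% had all 4 day 4 libraries above the day 0 libraries and 22.3% had all 4 below, which held for 3182 of the called rises and 2918 of the called falls. The changes of clone 5 and clone 3 correlated at r = 0.809 across the 14249 genes, which share the scaling of each clone's libraries and are not replicates. Without the clone as a block 2488 genes rose and 2601 fell.

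**Figure D1:**
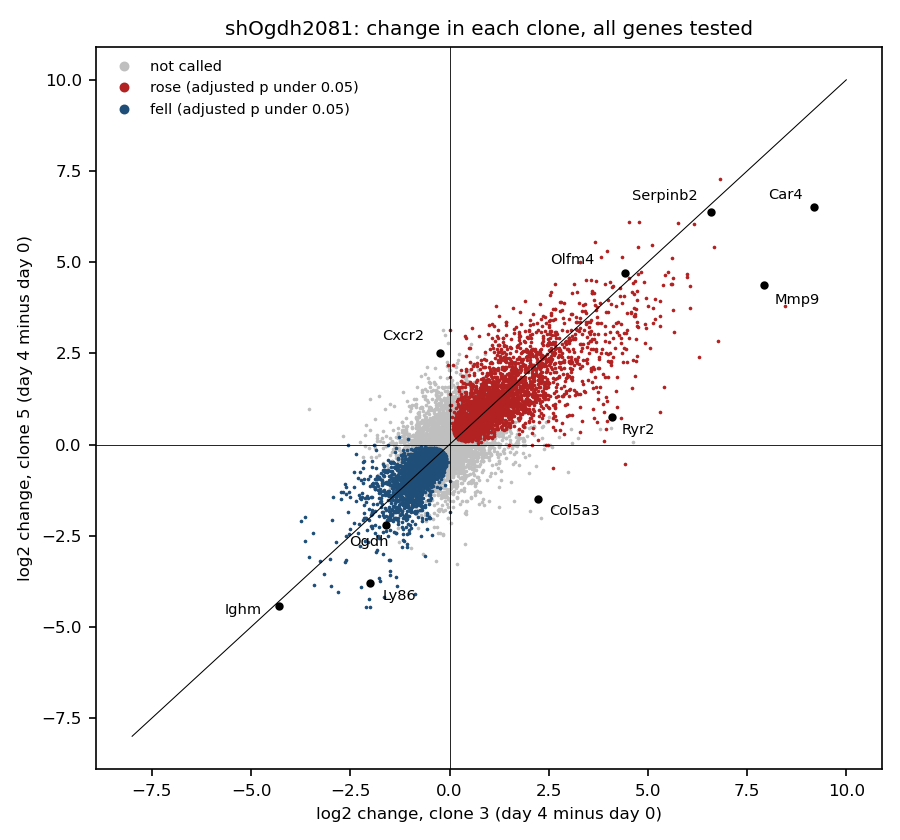
Log2 change from day 0 to day 4 of every gene tested, in clone 5 (vertical axis) against clone 3 (horizontal axis); the diagonal marks equal change, red points are the 3914 genes that rose, blue points the 3693 that fell, grey points genes not called and black points labelled genes. Ighm and Serpinb2 lie near the diagonal, Mmp9, Ryr2 and Col5a3 lie below it and Cxcr2 lies above it.

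Car4 and Areg had the largest fitted rises among the named genes. Car4, a membrane carbonic anhydrase, had no count in any day 0 library and 9.07, 8.64, 56.8 and 57.2 CPM at day 4. Set against a floor of 3 counts over the 4 day 0 libraries, the mean Car4 level at day 4 was at least 435-fold higher. By clone the bound was 118-fold in clone 5 and 763-fold in clone 3. Areg, the EGF receptor ligand amphiregulin, was likewise without a count at day 0 and reached 0.948, 1.56, 34.1 and 34.7 CPM at day 4. Its mean was at least 235-fold higher, a bound set mostly by clone 3. By clone the Areg bound was 17-fold in clone 5 and 459-fold in clone 3. Tdrd5, a Tudor domain gene of the germ line, had no day 0 count and 2.71, 2.28, 2.72 and 2.56 CPM at day 4. Car4 and Tdrd5 were the 2 genes with no day 0 count and at least 2 CPM in every day 4 library, and no gene showed the reverse. Car4 (adjusted p = 0.066) and Areg (adjusted p = 0.12) did not pass with DESeq2, nor did Areg without the clone block (adjusted p = 0.134). Net of the control hairpin the fitted log2 changes of Car4 and Areg (12.18 and 11.23) equalled those without it. The net test called neither gene in any setting. With no estimated control change behind it, that test cannot say whether the control shared these rises.

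Among genes with day 0 counts and a mean of at least 5 CPM, Serpinb2, the plasminogen activator inhibitor of monocytes, rose furthest, with 95.2, 77.5, 214 and 196 CPM at day 4, against 1.203, 0.6204, 3.54 and 0.681 CPM at day 0 (change of 6.6 ± 0.24 on the log2 scale, adjusted p = 1.4e-06). Mmp9, the gelatinase of tertiary granules, measured 32.9, 37.4, 265 and 311 CPM at day 4, against 1.68, 1.51, 1.18 and 0.908 CPM at day 0 (change of 6.37 ± 0.86 on the log2 scale, adjusted p = 0.0033). Both clone 3 libraries stood above both clone 5 libraries at day 4, and the call was lost when the shOgdh2081 sums were fitted alone (adjusted p = 0.065). Il1rn, the interleukin 1 receptor antagonist, measured 145, 135, 347 and 326 CPM at day 4, against 4.25, 3.46, 9.57 and 4.32 CPM at day 0 (change of 5.4 ± 0.24 on the log2 scale, adjusted p = 9.1e-06), with the clone 3 libraries high at both days. Olfm4, a secondary granule glycoprotein, measured 2083, 2047, 889 and 838 CPM at day 4, against 88.8, 65.2, 36.04 and 43.3 CPM at day 0 (change of 4.57 ± 0.17 on the log2 scale, adjusted p = 8.4e-07), and here clone 5 was the higher. These 4 genes were picked by a rule that required no overlap between day 4 and day 0 libraries, so their separation is not a separate result.

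The remaining large rises were Egr3, an immediate early zinc finger factor (5.47 ± 0.79), Pald1, a paladin phosphatase-like gene (5.31 ± 0.45), Olfml2b, a secreted olfactomedin-domain gene (5.17 ± 0.39), Tgm2, a transglutaminase (4.78 ± 0.15), and Slc41a2, a magnesium transporter (4.58 ± 0.29), all as log2 changes with adjusted p between 4.0e-07 and 0.0042. Egr3 measured 20.2, 26.2, 141 and 150.2 CPM at day 4, against 1.44, 0.6204, 2.49 and 1.59 CPM at day 0. Olfml2b measured 285, 268, 207 and 216 CPM at day 4, against 12.6, 8.24, 3.28 and 3.07 CPM at day 0, so its day 0 level was higher in clone 5 and its day 4 level close in both clones. The stefins Stfa2l1, Stfa2 and Stfa3 complete the 14 and are described with their family.

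**Figure D2:**
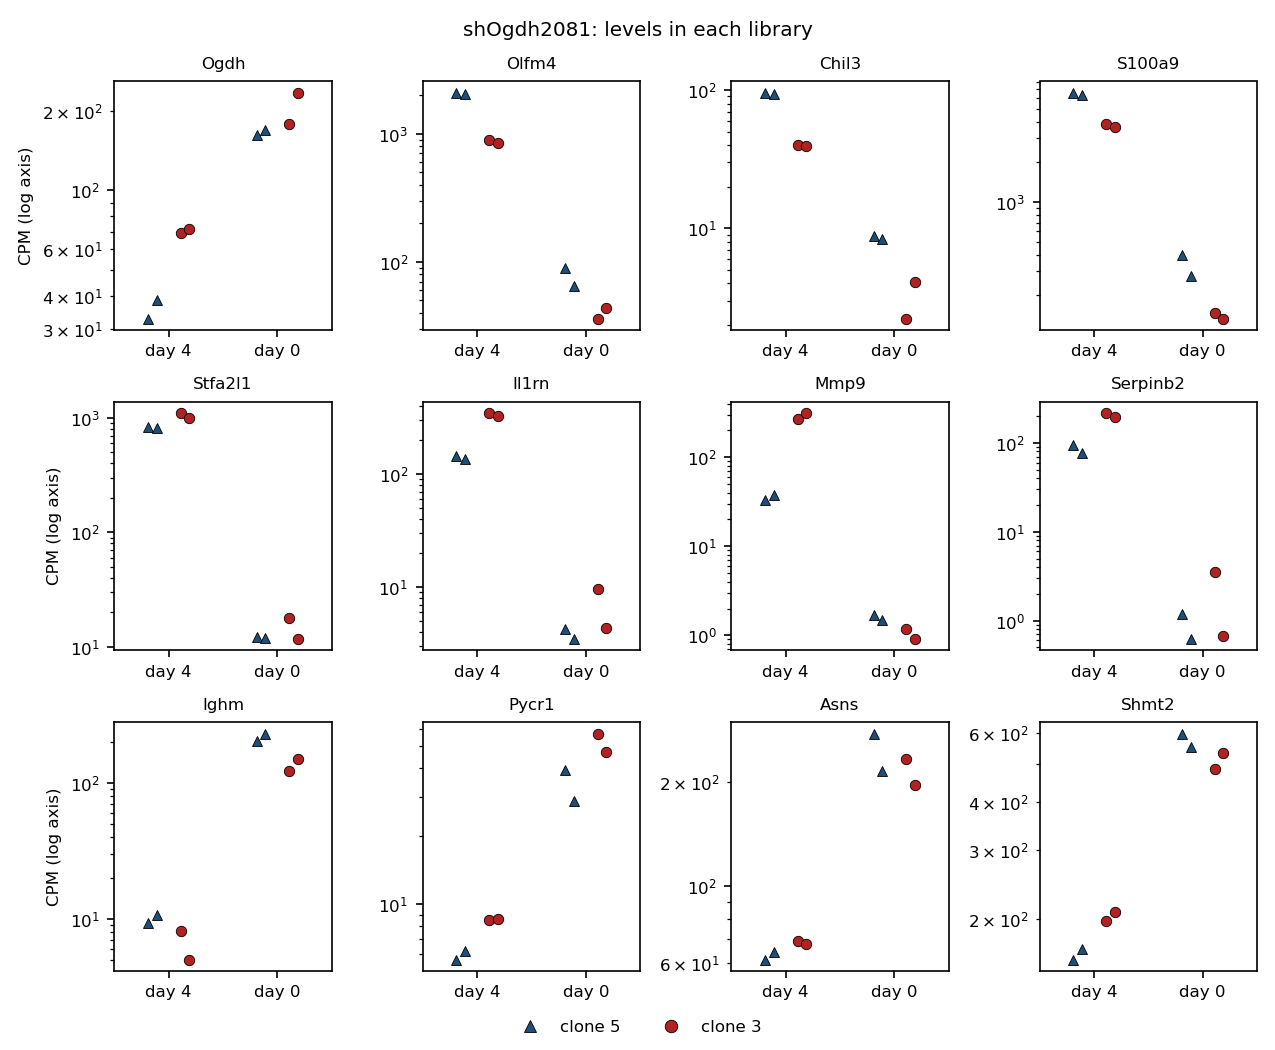
CPM of 12 named genes in each shOgdh2081 library (log axes), with day 4 left of day 0, clone 5 as triangles and clone 3 as circles. The day 4 and day 0 libraries lie apart in each panel. The rule for naming genes required this of Olfm4, Stfa2l1, Il1rn, Mmp9, Serpinb2, Ighm and Pycr1. Mmp9 and Il1rn are higher in clone 3 at day 4, and Olfm4, Chil3 and S100a9 are higher in clone 5.

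The largest fall was that of Ighm, the constant region gene of the immunoglobulin mu heavy chain, with 9.34, 10.8, 8.12 and 5.03 CPM at day 4, against 205, 231, 124 and 151 CPM at day 0 (change of -4.38 ± 0.52 on the log2 scale, adjusted p = 0.0022). Serpinf1, a secreted serpin, fell with 0.541, 0.9599, 0.925 and 1.42 CPM at day 4, against 12.4, 11.97, 12.2 and 12.7 CPM at day 0 (change of -3.71 ± 0.27 on the log2 scale, adjusted p = 1.5e-05). P2rx3, an ATP-gated channel, and B3gnt5, which starts lacto-series glycolipid synthesis, fell by 3.3 ± 0.20 and 2.99 ± 0.23 on the log2 scale. In all 4 genes the day 4 libraries of both clones stood close together. Pycr1, which makes proline, and Cth, which makes cysteine from cystathionine, were enzymes of amino acid synthesis among the largest falls. Pycr1 measured 5.68, 6.24, 8.53 and 8.63 CPM at day 4, against 39.3, 28.7, 56.9 and 47.4 CPM at day 0 (change of -2.59 ± 0.18 on the log2 scale, adjusted p = 1.7e-05). Cth measured 8.26, 5.64, 4.06 and 3.89 CPM at day 4, against 53.6, 30.5, 20.3 and 14.99 CPM at day 0 (change of -2.41 ± 0.15 on the log2 scale, adjusted p = 7.0e-06). Nr1d2, a clock nuclear receptor, fell by 2.46 ± 0.17 and Bex6 by 2.84 ± 0.26.

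A further group of large falls was uneven between clones. Bcat1, the cytosolic branched-chain aminotransferase that uses 2-oxoglutarate, measured 1.22 and 0.8399 CPM in clone 5 and 4.62 and 4.65 CPM in clone 3 at day 4, against 27.99 and 20.03 CPM in clone 5 and 25.03 and 15.3 CPM in clone 3 at day 0 (change of -2.96 ± 0.53 on the log2 scale, adjusted p = 0.0056). Prdx4, a peroxiredoxin of the secretory pathway, measured 1.08, 0.5999, 6.99 and 6.64 CPM at day 4, against 21.8, 18.1, 28.7 and 26.3 CPM at day 0 (change of -2.78 ± 0.64 on the log2 scale, adjusted p = 0.019). Ly86, the MD-1 partner of RP105, measured 3.38, 3.36, 18.9 and 14.8 CPM at day 4, against 45.5, 50.6, 59.9 and 76.5 CPM at day 0 (change of -2.64 ± 0.52 on the log2 scale, adjusted p = 0.012). Gfi1b, an erythroid and megakaryocytic repressor, measured 1.08, 1.2, 4.01 and 4.74 CPM at day 4, against 15, 22.2, 16.6 and 22.8 CPM at day 0 (change of -2.86 ± 0.37 on the log2 scale, adjusted p = 6.2e-04). Both genes were lower in clone 5 at day 4. Abcb1b, a drug efflux pump, measured 1.49, 1.68, 8.79 and 7.97 CPM at day 4, against 19.8, 24.8, 22.3 and 33.1 CPM at day 0 (change of -2.45 ± 0.44 on the log2 scale, adjusted p = 0.0054). Ccr2, the monocyte chemokine receptor, measured 29.1, 29.2, 86.6 and 81.6 CPM at day 4, against 245, 484, 189 and 234 CPM at day 0 (change of -2.43 ± 0.66 on the log2 scale, adjusted p = 0.032), and one day 0 library of clone 5 stood above the other 3. For each of these 6 genes the clone 5 libraries were the lower at day 4. The calls of Bcat1, Prdx4, Ly86, Abcb1b and Ccr2 were lost without the clone as a block, with adjusted p between 0.054 and 0.22 in that fit, and that of Ccr2 was lost in 5 of 21 other settings in all.

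Genes of late neutrophil maturation rose together. Of 19 tested genes of secondary and tertiary granule proteins, 18 rose and 1 fell, with a median log2 change of 3.71 (3.07 in clone 5 and 3.26 in clone 3); with the 2 members that had no day 0 count set at their lower bound the median was 3.49. Their summed level was 5561, 5566, 3439 and 3411 CPM at day 4, against 882, 863, 1057 and 1102 CPM at day 0. Chil3, a chitinase-like lectin of neutrophil granules, measured 95.7, 93.8, 39.97 and 39.7 CPM at day 4, against 8.82, 8.42, 2.23 and 4.09 CPM at day 0 (change of 3.49 ± 0.10 on the log2 scale, adjusted p = 3.7e-07), a call lost without the clone block (adjusted p = 0.102). Ltb4r1, the leukotriene B4 receptor, measured 145, 145, 77.2 and 81.9 CPM at day 4, against 26.3, 28.6, 12.1 and 14.9 CPM at day 0 (change of 2.44 ± 0.091 on the log2 scale, adjusted p = 1.0e-06). Itgam, the CD11b integrin chain, measured 434, 440.1, 572 and 593 CPM at day 4, against 109, 108, 175 and 134 CPM at day 0 (change of 1.94 ± 0.092 on the log2 scale, adjusted p = 2.8e-06). Hp, haptoglobin, was the member that fell (-0.77 ± 0.13, adjusted p = 9.2e-04). No day 4 sum overlapped a day 0 sum, and clone 5 was the higher at day 4 and the lower at day 0.

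Cebpe, Cebpd and Cebpb encode C/EBP factors that bind the promoters of such granule genes, and the letters TTGCNNAA were looked for on both strands of the RefSeq promoter windows (GRCm38.p6, 250 bases before to 50 bases after the start). Of genes with a window, they stood in 11.6% of those that rose, 9.12% of those that fell and 10.3% of all 9949 tested. In the granule list they stood in 5 of 17 genes with a window (29.4%). This share, too, describes the list and is not a result of these data. Lcn2, lipocalin 2 (4.57 ± 0.18), and Ngp, neutrophilic granule protein (4.04 ± 0.27), are printed because they rose and hold the letters, and were picked after their values were seen. Capitals mark each match.
Ngp: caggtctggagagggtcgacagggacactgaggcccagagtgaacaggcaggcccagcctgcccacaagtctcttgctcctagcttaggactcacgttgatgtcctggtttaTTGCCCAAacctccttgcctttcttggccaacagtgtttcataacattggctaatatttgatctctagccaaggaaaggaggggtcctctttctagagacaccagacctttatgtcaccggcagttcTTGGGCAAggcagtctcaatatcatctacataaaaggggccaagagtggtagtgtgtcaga
Lcn2: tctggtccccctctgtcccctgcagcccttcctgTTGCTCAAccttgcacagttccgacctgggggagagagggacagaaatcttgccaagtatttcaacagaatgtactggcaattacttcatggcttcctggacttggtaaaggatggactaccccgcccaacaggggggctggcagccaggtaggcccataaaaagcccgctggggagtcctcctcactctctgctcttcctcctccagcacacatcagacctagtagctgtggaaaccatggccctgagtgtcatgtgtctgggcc
The Ngp window is chr9:110419558-110419857, plus strand, and the Lcn2 window is chr2:32387690-32387989, minus strand. Ngp measured 1463, 1503, 169 and 178 CPM at day 4, against 71.9, 55.4, 12.8 and 17.7 CPM at day 0, and Lcn2 measured 279.5, 274, 188 and 182 CPM at day 4, against 14.2, 10.02, 8.13 and 6.13 CPM at day 0, so both rose in both clones. A match of letters is a description and not a measured binding site.

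Of 32 tested genes of the neutrophil cytoplasm and surface, 28 rose and 2 fell (median 1.72; 1.61 in clone 5 and 1.79 in clone 3), and their sum was 17110, 16770, 13490 and 13220 CPM at day 4, against 3966, 3531, 3443 and 3163 CPM at day 0. S100a9, a subunit of calprotectin, measured 6595, 6371, 3844 and 3631 CPM at day 4, against 402, 279, 145 and 133 CPM at day 0 (change of 4.48 ± 0.21 on the log2 scale, adjusted p = 2.8e-06). Clec4a2, an inhibitory lectin receptor, rose by 3.34 ± 0.15, Fcgr4, an activating IgG receptor, by 2.77 ± 0.15, and Pirb, an inhibitory immunoglobulin-like receptor, by 2.64 ± 0.14 on the log2 scale. S100a4, a calcium-binding protein, was among those that fell (-0.94 ± 0.33, adjusted p = 0.037). Primary granule proteins did not move together: of 13 tested, 2 rose and 5 fell, where 27.5% of all genes tested rose and 25.9% fell. Their median change was -0.14, against 0.14 in the control. Net of the control 2 rose and 6 fell (median -0.82), where 13.6% of all genes rose and 14.2% fell. Lyz2, lysozyme, measured 2645, 2501, 6944 and 6506 CPM at day 4, against 300.4, 238, 1414 and 981 CPM at day 0 (change of 2.86 ± 0.20 on the log2 scale, adjusted p = 1.9e-05), with clone 3 the higher at both days. Without the clone block the calls of Lyz2 (adjusted p = 0.0716) and Pirb (adjusted p = 0.0598) were lost. Serpinb1a, an inhibitor of neutrophil proteases, fell by 0.89 ± 0.11, Plac8 by 1.09 ± 0.14 and Cst7, cystatin F, by 1.18 ± 0.17.

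**Figure D3:**
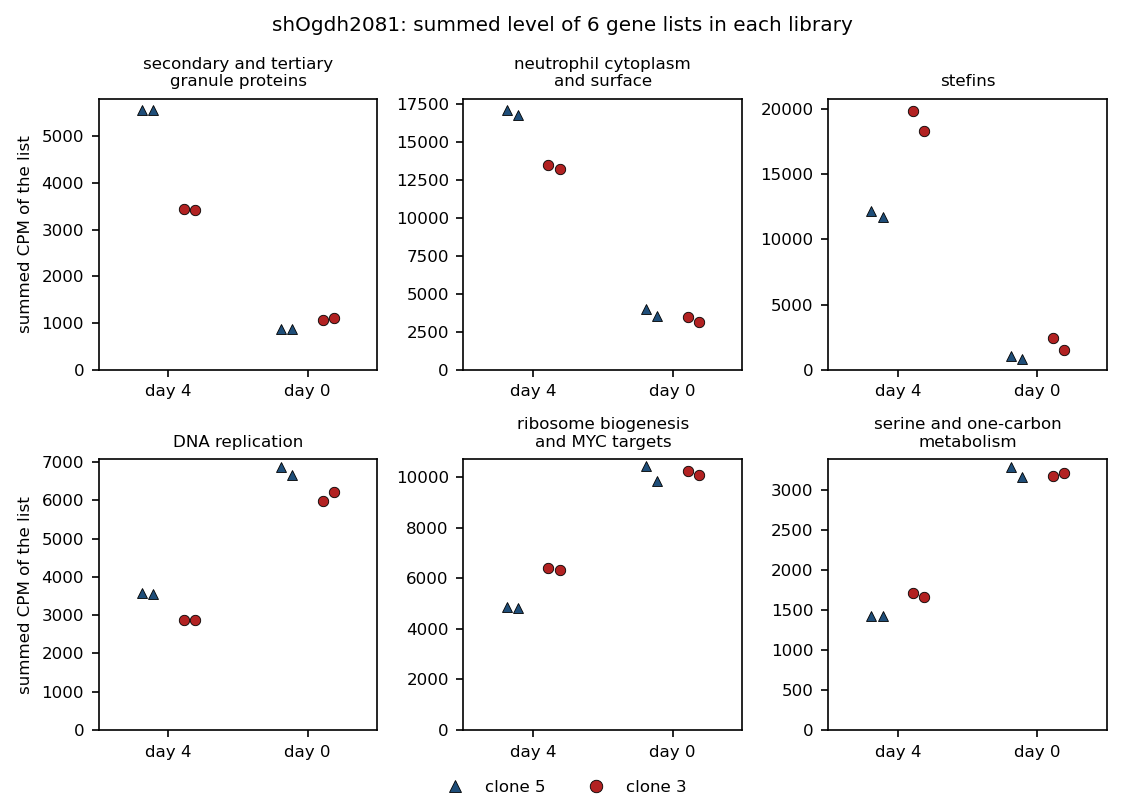
Summed CPM of 6 gene lists in each shOgdh2081 library, with day 4 left of day 0, clone 5 as triangles and clone 3 as circles. In each panel the day 4 and day 0 libraries do not overlap, and clone 5 is the higher at day 4 for granule and neutrophil genes and for DNA replication, while clone 3 is the higher for stefins and ribosome biogenesis.

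Stefins are cytosolic inhibitors of cysteine cathepsins, and the list here also counts Cst3, a related cystatin outside the stefin family. In sum the list rose to 12150, 11730, 19820 and 18280 CPM at day 4, against 1023, 791, 2453 and 1483 CPM at day 0. Of 9 tested, 8 rose (median 3.9, with 4.21 in clone 5 and 3.59 in clone 3). The remaining 1 was not called (-0.40), and its day 4 libraries lay below those of day 0. Stfa2l1 (chr16:36156811-36161948) measured 829.6, 815, 1096 and 1006 CPM at day 4, against 12.2, 12.1, 17.8 and 11.7 CPM at day 0 (change of 6.11 ± 0.18 on the log2 scale, adjusted p = 4.0e-07). Stfa2 (chr16:36403946-36408363) measured 349.9, 332, 626 and 586 CPM at day 4, against 9.54, 5.94, 7.73 and 4.201 CPM at day 0 (change of 6.0 ± 0.34 on the log2 scale, adjusted p = 7.9e-05). Stfa3 (chr16:36450537-36455392) measured 1694, 1685, 4588 and 4246 CPM at day 4, against 48.4, 28.6, 241 and 95.2 CPM at day 0 (change of 5.08 ± 0.48 on the log2 scale, adjusted p = 7.9e-04). All 3 were higher in clone 3 than in clone 5 at day 4. These genes are near-identical neighbours on chromosome 16, and the count of any single one is uncertain because reads could have been split between copies.

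Monocyte and macrophage genes were mixed, with 15 rises and 4 falls of 28 tested, where 27.5% of all genes tested rose and 25.9% fell. The median change was 0.77, with 0.57 in clone 5 and 0.85 in clone 3, and 3 rose without the clone block. Net of the control 7 rose and 1 fell (median 0.58), where 13.6% of all genes rose and 14.2% fell. Ccl6, a myeloid chemokine, measured 198, 183, 211 and 209 CPM at day 4, against 8.26, 7.36, 8.91 and 8.74 CPM at day 0 (change of 4.56 ± 0.10 on the log2 scale, adjusted p = 7.5e-08). Lgals3, galectin 3, measured 265, 260.2, 352 and 363 CPM at day 4, against 33.8, 15.9, 57.3 and 21.5 CPM at day 0 (change of 3.28 ± 0.16 on the log2 scale, adjusted p = 7.0e-06). Gpnmb, a lysosomal glycoprotein of macrophages, measured 36.1, 32.5, 21.5 and 26.5 CPM at day 4, against 8.34, 3.63, 6.03 and 0.908 CPM at day 0 (change of 2.6 ± 0.16 on the log2 scale, adjusted p = 7.0e-06). Adgre1, the F4/80 antigen, rose by 0.95 ± 0.086. Without the clone block the calls of Gpnmb (adjusted p = 0.169) and Adgre1 (adjusted p = 0.403) were lost. In both clones the day 0 values of Gpnmb and Lgals3 were lower in library 2 than in library 1. Of 27 tested chemokines, interleukin 1 genes and inflammatory mediators, 20 rose and 2 fell (median 1.54; 0.84 in clone 5 and 1.83 in clone 3). Nfkbia, the inhibitor of NF-kappa-B, measured 98.8, 100.3, 135 and 139.7 CPM at day 4, against 35.7, 34.3, 35.1 and 39.9 CPM at day 0 (change of 1.66 ± 0.094 on the log2 scale, adjusted p = 5.7e-06). Icam1, an adhesion molecule, rose by 1.26 ± 0.14, and Sod2, the mitochondrial superoxide dismutase, fell by 0.78 ± 0.087.

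Among 32 myeloid lineage transcription factors 21 rose and 6 fell (median 0.56). Cebpe, required for secondary granules, measured 373, 392, 339.5 and 365 CPM at day 4, against 107, 106, 92.3 and 92.7 CPM at day 0 (change of 1.85 ± 0.082 on the log2 scale, adjusted p = 2.3e-06), and its day 4 and day 0 libraries lay far apart in both clones. Gfi1, a transcriptional repressor that acts within the granulocyte lineage, rose by 1.27 ± 0.088, Cebpd by 1.34 ± 0.10 and Cebpb by 1.07 ± 0.10. Gfi1 also rose in the control (0.85 ± 0.088). The self-renewal programme counted 17 falls and 5 rises of 28 (median -0.29). Hoxa9 and Meis1 changed little (-0.29 ± 0.094 and -0.29 ± 0.088, adjusted p = 0.028 and 0.021), and their day 4 and day 0 libraries overlapped. Flt3 fell furthest (-3.82 ± 0.50, adjusted p = 2.8e-04), with 1.51 to 3.18 CPM at day 0. Hmgb3, a chromatin protein of progenitors, measured 16.4, 19.7, 20.6 and 19.8 CPM at day 4, against 67.8, 60.6, 67.8 and 60.5 CPM at day 0 (change of -1.76 ± 0.11 on the log2 scale, adjusted p = 8.4e-06). Psip1, the LEDGF tether of MLL, fell by 0.89 ± 0.074 and Lmo2, a haematopoietic adaptor, by 0.80 ± 0.078. Igf2bp2, an RNA-binding protein, rose with 9.47, 7.56, 44.2 and 47.9 CPM at day 4, against 3.37, 1.77, 10.6 and 9.99 CPM at day 0 (change of 1.94 ± 0.16 on the log2 scale, adjusted p = 2.9e-05), its libraries overlapped, with clone 3 the higher at both days, and the call was lost without the clone block (adjusted p = 0.148).

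Cell cycle genes were lower at day 4. All 36 DNA replication genes tested fell (median -1.03; -0.87 in clone 5 and -1.12 in clone 3), and their sum was 3568, 3554, 2862 and 2860 CPM at day 4, against 6870, 6661, 5967 and 6213 CPM at day 0. Pola1, the catalytic subunit of DNA polymerase alpha, measured 47.4, 48.95, 49.8 and 50.95 CPM at day 4, against 147, 134, 126 and 120.5 CPM at day 0 (change of -1.44 ± 0.088 on the log2 scale, adjusted p = 7.3e-06). Lig1, the replicative ligase, measured 119.9, 124, 92.9 and 93.4 CPM at day 4, against 266, 259, 210.2 and 207 CPM at day 0 (change of -1.16 ± 0.076 on the log2 scale, adjusted p = 9.8e-06). Cdc6, a licensing factor, fell by 1.08 ± 0.079, and Ccne1, the G1 to S cyclin, by 1.21 ± 0.089. Of 40 mitotic genes 36 fell (median -0.67; -0.47 in clone 5 and -0.84 in clone 3). Cenpf, a kinetochore protein, measured 58.2, 62.4, 55.2 and 54.5 CPM at day 4, against 120.5, 142, 115 and 125 CPM at day 0 (change of -1.15 ± 0.072 on the log2 scale, adjusted p = 8.3e-06). The cyclins and centromere gene Ccnb1, Ccna2 and Cenpa fell by 1.13 ± 0.074, 1.09 ± 0.074 and 1.01 ± 0.076. The mitotic list fell less in clone 5, where 12 of its genes had a change above that of clone 3 at an adjusted p under 0.05.

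E2F factors drive replication genes at the G1 to S transition. The letters TTTGGCGC, TTTCCCGC, TTCCCGCC and TTGGCGCC were looked for on both strands; the first overlaps the last, and the second overlaps the third. One or more stood in 16 of 28 replication genes with a window (57.1%), in 11.4% of the genes that fell, in 5.67% of those that rose and in 8.01% of all. The share of the replication list describes genes known to be driven by E2F and is not a result of these data. Pola1 is printed as the replication gene with the smallest p, and Mcm3, a subunit of the replicative helicase (-1.08 ± 0.10), as the one with most matches; capitals mark the letters.
Pola1: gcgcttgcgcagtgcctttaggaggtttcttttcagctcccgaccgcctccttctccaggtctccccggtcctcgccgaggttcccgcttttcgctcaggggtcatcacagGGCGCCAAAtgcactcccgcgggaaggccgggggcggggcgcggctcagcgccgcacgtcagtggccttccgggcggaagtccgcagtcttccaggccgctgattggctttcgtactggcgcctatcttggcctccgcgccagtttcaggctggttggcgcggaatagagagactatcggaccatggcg
Mcm3: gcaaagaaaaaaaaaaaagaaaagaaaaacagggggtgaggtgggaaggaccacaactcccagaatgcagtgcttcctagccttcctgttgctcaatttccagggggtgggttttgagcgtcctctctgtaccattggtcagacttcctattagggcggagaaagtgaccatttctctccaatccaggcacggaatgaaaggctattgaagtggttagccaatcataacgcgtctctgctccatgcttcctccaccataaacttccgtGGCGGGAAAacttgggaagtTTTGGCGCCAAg
The Pola1 window is chrX:93632106-93632405, minus strand, and the Mcm3 window is chr1:20820263-20820562, minus strand. Mcm3 measured 271, 258, 231 and 233 CPM at day 4, against 565, 504, 481 and 503 CPM at day 0, with no overlap between the days.

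G1 regulators moved both ways, with 7 rises and 9 falls of 20 tested. For this and the p53 list, the shares among all genes tested were 27.5% that rose and 25.9% that fell. Cdkn2b, the CDK4 and CDK6 inhibitor p15, measured 8.799, 7.32, 46.3 and 46.01 CPM at day 4, against 0.641, 0.798, 1.18 and 1.59 CPM at day 0 (change of 4.4 ± 0.33 on the log2 scale, adjusted p = 1.9e-05), higher in clone 3 at day 4. Cdkn1b, the inhibitor p27, rose by 0.85 ± 0.10, Ccnd3 by 0.71 ± 0.073, and E2f8, a repressor E2F, fell by 1.12 ± 0.13. Of 20 p53 targets 9 rose and 2 fell (median 0.81; 0.49 in clone 5 and 1.0 in clone 3). Mdm2, the p53 ubiquitin ligase, measured 212, 214, 277 and 279 CPM at day 4, against 132, 115, 141 and 105 CPM at day 0 (change of 0.97 ± 0.12 on the log2 scale, adjusted p = 2.1e-04). Btg2, an antiproliferative factor, rose by 2.58 ± 0.26, Trp53inp1 by 2.02 ± 0.20 and Fas, a death receptor, by 2.27 ± 0.30, with Fas low at 4.47, 3.72, 3.904 and 3.98 CPM at day 4 and 0.882, 0.354, 1.57 and 0.568 CPM at day 0.

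Of 28 genes of purine and pyrimidine synthesis, 25 fell and 1 rose (median -0.88). Rrm2, the regulated subunit of ribonucleotide reductase, measured 191, 190.4, 175 and 177 CPM at day 4, against 506, 446, 481 and 430.2 CPM at day 0 (change of -1.37 ± 0.074 on the log2 scale, adjusted p = 4.8e-06), and the libraries of each day lay close together. Tk1, thymidine kinase, fell by 1.14 ± 0.074, Dut, the dUTPase, by 1.19 ± 0.084, and Prps1, which makes phosphoribosyl pyrophosphate, by 1.11 ± 0.082. Of 38 ribosome biogenesis genes and MYC targets 36 fell (median -0.81; -1.0 in clone 5 and -0.64 in clone 3), with a sum of 4849, 4843, 6414 and 6319 CPM at day 4, against 10430, 9856, 10250 and 10090 CPM at day 0. Polr1b, a subunit of RNA polymerase I, fell with 46.02, 41.3, 49.4 and 54.2 CPM at day 4, against 106, 101, 109.7 and 102 CPM at day 0 (change of -1.17 ± 0.084 on the log2 scale, adjusted p = 1.5e-05). Dkc1, the pseudouridine synthase, fell by 1.23 ± 0.10. Of 22 cytosolic aminoacyl-tRNA synthetases, which charge tRNA with amino acids, 20 fell (median -0.68). Vars measured 188, 206, 176 and 193 CPM at day 4, against 426, 422, 341 and 387 CPM at day 0 (change of -1.08 ± 0.086 on the log2 scale, adjusted p = 2.6e-05). Similarly, Lars, Yars and Gars fell by 1.15 ± 0.10, 0.93 ± 0.083 and 1.07 ± 0.10.

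ATF4 is the transcription factor of the integrated stress response, and many of its known targets serve amino acid supply. Of 30 ATF4 targets tested 18 fell and 5 rose (median -0.84; -0.98 in clone 5 and -0.52 in clone 3). Asns, asparagine synthetase, measured 61.2, 64.4, 69.3 and 67.9 CPM at day 4, against 276, 215, 233 and 196 CPM at day 0 (change of -1.82 ± 0.10 on the log2 scale, adjusted p = 5.4e-06). Pck2, the mitochondrial phosphoenolpyruvate carboxykinase, measured 58.5, 64.1, 60.2 and 55.8 CPM at day 4, against 160.4, 164, 133 and 153 CPM at day 0 (change of -1.37 ± 0.09 on the log2 scale, adjusted p = 9.8e-06). Ddit4, an inhibitor of mTORC1, rose with 49.8, 53.3, 47.2 and 48.2 CPM at day 4, against 14.2, 15.9, 15.3 and 12.5 CPM at day 0 (change of 1.76 ± 0.11 on the log2 scale, adjusted p = 8.5e-06). Slc7a11, the cystine transporter, was a further member that rose (4.09 ± 0.47, adjusted p = 0.0019). Asns and Pck2 fell to a like level in both clones, and all libraries of the 2 days lay apart.

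The C/EBP-ATF element TGATGNAA, which ATF4 binds with a C/EBP partner, was looked for on both strands. Of genes with a window, it stood in 2.93% of those that fell, 2.85% of those that rose and 2.88% of all tested. Among ATF4 targets with a window it stood in 10 of 26 (38.5%). The list was made of known ATF4 targets, so this share describes the list and is not a result of these data. Asns and Pycr1 fell and are shown with the element in capitals, while Slc7a11, which rose, held 2 matches.
Asns: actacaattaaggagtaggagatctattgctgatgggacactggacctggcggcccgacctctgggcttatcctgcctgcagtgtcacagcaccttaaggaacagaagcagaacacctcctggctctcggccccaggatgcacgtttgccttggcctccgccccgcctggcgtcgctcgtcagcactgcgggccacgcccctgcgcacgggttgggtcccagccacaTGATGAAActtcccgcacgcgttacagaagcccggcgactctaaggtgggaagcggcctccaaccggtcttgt
Pycr1: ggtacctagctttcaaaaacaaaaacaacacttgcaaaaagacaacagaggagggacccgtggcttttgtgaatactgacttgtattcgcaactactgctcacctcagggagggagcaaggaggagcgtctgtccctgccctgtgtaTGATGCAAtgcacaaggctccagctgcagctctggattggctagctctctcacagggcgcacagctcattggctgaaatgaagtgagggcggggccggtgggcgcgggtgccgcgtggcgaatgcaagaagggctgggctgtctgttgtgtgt
The Asns window is chr6:7693160-7693459, minus strand, and the Pycr1 window is chr11:120643699-120643998, minus strand. Letters in a window thus stood before genes that moved either way.

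Serine and one-carbon metabolism counted 15 falls and 1 rise of 19 (median -0.81), with a sum of 1431, 1420, 1718 and 1662 CPM at day 4, against 3293, 3163, 3175 and 3210 CPM at day 0. Shmt2, the mitochondrial serine hydroxymethyltransferase, measured 157, 167, 197 and 208 CPM at day 4, against 598, 554, 487 and 533 CPM at day 0 (change of -1.61 ± 0.12 on the log2 scale, adjusted p = 1.6e-05). Mthfd1l and Mthfd1, folate enzymes, fell by 0.99 ± 0.085 and 0.86 ± 0.081, and Mat2a, which makes S-adenosylmethionine, by 0.81 ± 0.074. Among 22 genes of glutamine, glutamate, aspartate and proline 10 fell and 1 rose (median -0.18). Oat, ornithine aminotransferase, measured 58.3, 53.3, 55.8 and 59.1 CPM at day 4, against 117, 109, 97.5 and 101 CPM at day 0 (change of -0.94 ± 0.08 on the log2 scale, adjusted p = 3.5e-05). Gpt2, an aminotransferase that forms 2-oxoglutarate from glutamate, measured 20.7, 19.3, 16.03 and 18.8 CPM at day 4, against 45.4, 31.9, 39.1 and 32.2 CPM at day 0 (change of -1.04 ± 0.095 on the log2 scale, adjusted p = 4.7e-05).

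The TCA cycle genes around Ogdh were lower as well. Of 16 tested 13 fell (median -0.47; -0.63 in clone 5 and -0.39 in clone 3), and they summed to 2210, 2234, 2577 and 2561 CPM at day 4, against 3230, 3105, 3200 and 3222 CPM at day 0. Idh3a, a subunit of the isocitrate dehydrogenase that feeds 2-oxoglutarate into the complex, measured 78.7, 81.8, 125 and 113 CPM at day 4, against 179, 176, 207 and 199 CPM at day 0 (change of -0.97 ± 0.094 on the log2 scale, adjusted p = 6.3e-05). Idh3g, its regulatory subunit, fell by 0.68 ± 0.078. Fh1, fumarase, measured 68.5, 62.9, 84.2 and 75.9 CPM at day 4, against 142, 139, 137 and 138 CPM at day 0 (change of -0.95 ± 0.10 on the log2 scale, adjusted p = 8.3e-05). Pcx, pyruvate carboxylase, fell by 1.24 ± 0.15 and was low throughout. Of 10 genes of the pyruvate dehydrogenase complex and its regulators 5 fell: Pdhb, an E1 subunit, fell by 0.62 ± 0.07, Pdp2, a phosphatase of the complex, by 0.66 ± 0.13, Pdpr by 0.52 ± 0.13 and Pdha1 by 0.28 ± 0.084. The Pdpr libraries overlapped, and its call was lost without clone 3 (-0.25, adjusted p = 0.12) and with day 0 libraries of number 1 alone (adjusted p = 0.052). The Pdp2 call was lost without the clone block (adjusted p = 0.127), and the Pdha1 call was lost without clone 5 (adjusted p = 0.20), with the shOgdh2081 sums alone and without the clone block. Of 11 genes of the cytosolic branches 6 fell and 1 rose, with Mdh1, malate dehydrogenase, at 139, 132, 144 and 133 CPM at day 4, against 252, 217, 229.9 and 229 CPM at day 0 (change of -0.77 ± 0.10 on the log2 scale, adjusted p = 2.1e-04), and Me2, a malic enzyme, lower by 0.45 ± 0.069, a call lost without the clone block (adjusted p = 0.336).

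Of 37 complex I subunits 25 fell and 1 rose (median -0.38), and of 48 proteins of the large mitochondrial ribosomal subunit 34 fell (median -0.42). Ndufa5 measured 18.7, 19.6, 17.98 and 17.6 CPM at day 4, against 37.8, 33.5, 32.1 and 35.99 CPM at day 0 (change of -0.94 ± 0.11 on the log2 scale, adjusted p = 1.3e-04). The subunits Ndufv1, Ndufa10 and Ndufb5 fell by 0.66 ± 0.079, 0.86 ± 0.10 and 0.58 ± 0.076. Mrpl33 measured 46.3, 46.2, 70.6 and 77.9 CPM at day 4, against 106, 123, 149 and 169 CPM at day 0 (change of -1.23 ± 0.083 on the log2 scale, adjusted p = 1.1e-05). Of 7 transcripts of mitochondrial DNA tested, 2 were called lower, mt-Nd1 and mt-Nd2, and 1 higher, mt-Co1. Among all genes tested 25.9% fell and 27.5% rose. The median change of the 7 was -0.19 with shOgdh2081 and -0.24 with the control. Net of the control 0 rose and 0 fell, where 2 had an unadjusted p under 0.05 in the lower direction. mt-Nd1 measured 1783, 1746, 2307 and 2151 CPM at day 4, against 3852, 3047, 4543 and 3096 CPM at day 0 (change of -0.88 ± 0.12 on the log2 scale, adjusted p = 3.7e-04). mt-Nd2 changed by -0.62 ± 0.11, with overlapping libraries, and mt-Co1 by 0.36 ± 0.12 (adjusted p = 0.03). The mt-Co1 call was lost in 4 of 21 other settings: without clone 5, without day 0 library 2 of clone 5, with day 0 libraries of number 1 alone and with the shOgdh2081 sums alone (adjusted p = 0.062 to 0.22). In both clones mt-Nd1 and mt-Nd2 were higher in day 0 library 1 than in library 2, and the mt-Nd2 call was lost with day 0 libraries of number 2 alone (adjusted p = 0.079) and without day 0 library 1 of clone 3 (adjusted p = 0.052). Alas1, which opens haem synthesis from succinyl-CoA, rose with 849, 923, 1432 and 1547 CPM at day 4, against 252, 360.5, 295 and 445 CPM at day 0 (change of 1.74 ± 0.11 on the log2 scale, adjusted p = 7.8e-06). In all 1 of 8 haem genes rose and 4 fell. Alas1 also rose in the control (0.74 ± 0.11).

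Glycolysis counted 12 rises and 3 falls of 24 (median 0.29), and this moved with the day 0 library. Its genes summed to 13740, 13660, 14790 and 14920 CPM at day 4, against 13210, 9605, 13390 and 10080 CPM at day 0, so day 0 library 1 came close to day 4 in both clones. With day 0 libraries of number 1 alone 8 rose (median 0.042), and with those of number 2 alone 17 rose. Slc2a3, the glucose transporter GLUT3, measured 25.4, 22.7, 30.3 and 30.6 CPM at day 4, against 1.84, 1.68, 4.98 and 3.63 CPM at day 0 (change of 3.22 ± 0.21 on the log2 scale, adjusted p = 1.3e-05), a call lost without the clone block (adjusted p = 0.107). Slc16a3, the lactate exporter MCT4, measured 217, 227, 201 and 209 CPM at day 4, against 120.4, 42.1, 93.05 and 36.2 CPM at day 0 (change of 1.53 ± 0.16 on the log2 scale, adjusted p = 2.1e-04), and its day 0 library 2 was the lower in both clones. Pfkfb4 and Pfkfb3, which make the activator of phosphofructokinase, rose by 1.05 ± 0.094 and 0.68 ± 0.068. The pentose phosphate pathway had 3 rises and 3 falls of 9, where 27.5% of all genes tested rose and 25.9% fell. Rpia and Pgls fell by 0.77 ± 0.072 and 1.06 ± 0.17. Rpe and H6pd rose by 0.65 ± 0.09 and 0.43 ± 0.088, the H6pd call being lost without the clone block (adjusted p = 0.107). Txnip, an inhibitor of glucose uptake, measured 96.2, 92.8, 120.5 and 119.8 CPM at day 4, against 291, 172, 289 and 169.9 CPM at day 0 (change of -1.13 ± 0.10 on the log2 scale, adjusted p = 3.5e-05). Arrdc3 measured 12.99, 8.64, 17.7 and 16.1 CPM at day 4, against 70.4, 27.9, 78.9 and 26.8 CPM at day 0 (change of -1.9 ± 0.15 on the log2 scale, adjusted p = 2.7e-05). With the control hairpin their changes were of like size (-1.12 ± 0.10 and -1.67 ± 0.15), and both were higher in day 0 library 1 than in library 2 in either clone. Of the 7 TXNIP and arrestin-domain genes 4 fell and 3 rose.

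Of 26 genes of cholesterol synthesis and uptake 17 fell and 1 rose (median -0.44). For this and the fatty acid lists, the shares among all genes tested were 25.9% that fell and 27.5% that rose. Insig1, a sterol sensor, measured 36.95, 35.9, 67.5 and 63.9 CPM at day 4, against 189, 114, 216 and 140.1 CPM at day 0 (change of -1.75 ± 0.14 on the log2 scale, adjusted p = 3.7e-05). Mvk, mevalonate kinase, fell by 1.25 ± 0.13. Fatty acid synthesis counted 10 falls and 3 rises of 19, with Fasn, fatty acid synthase, at 349.9, 405, 586 and 669.7 CPM at day 4, against 1194, 992, 1292 and 1230 CPM at day 0 (change of -1.3 ± 0.12 on the log2 scale, adjusted p = 4.7e-05). Elovl6 and Acsl3 fell by 1.4 ± 0.12 and 1.09 ± 0.10, and Elovl7 rose by 1.62 ± 0.16; the Elovl6 call was lost without the clone block (adjusted p = 0.0829). Fatty acid oxidation counted 8 falls and 3 rises of 19: Hadh fell by 0.86 ± 0.094, Etfa by 0.62 ± 0.073 and Ppargc1b, a coactivator of mitochondrial genes, by 1.58 ± 0.21, while Acadvl rose by 0.65 ± 0.11.

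Dioxygenases that use 2-oxoglutarate counted 12 rises and 3 falls of 34 (median 0.12), where 27.5% of all genes tested rose and 25.9% fell. Kdm6b, a histone demethylase, measured 130.4, 138, 138 and 149.8 CPM at day 4, against 53.6, 52.1, 55.3 and 45.3 CPM at day 0 (change of 1.4 ± 0.076 on the log2 scale, adjusted p = 4.8e-06). Kdm3a, a further histone demethylase, rose by 1.04 ± 0.10, Kdm2a by 0.63 ± 0.076, and Tet2, a 5-methylcytosine oxidase, fell by 0.55 ± 0.078. Of 20 genes of NRF2, glutathione and thioredoxin 10 rose and 2 fell (median 0.37). Hmox1, haem oxygenase, measured 116, 123, 127 and 132 CPM at day 4, against 35.7, 31.4, 43.8 and 27.02 CPM at day 0 (change of 1.84 ± 0.077 on the log2 scale, adjusted p = 2.0e-06). Slc40a1, the iron exporter ferroportin, measured 262, 258, 82.04 and 77.1 CPM at day 4, against 45.4, 40.95, 20.6 and 22.8 CPM at day 0 (change of 2.24 ± 0.15 on the log2 scale, adjusted p = 1.9e-05), with clone 5 the higher. Nfe2l2, NRF2 itself, rose by 0.70 ± 0.079, against 0.64 ± 0.08 in the control.

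In the BCL2 family 6 rose and 3 fell of 15 tested. The shares among all genes tested, for this and the next lists, were 27.5% that rose and 25.9% that fell. Bcl2l11, the death effector BIM, measured 129, 128, 229 and 238 CPM at day 4, against 27.8, 30.8, 34.6 and 31.6 CPM at day 0 (change of 2.46 ± 0.15 on the log2 scale, adjusted p = 1.1e-05). Bcl2l1, the survival factor BCL-XL, rose by 1.36 ± 0.086, and Bcl2 and Bid fell by 1.0 ± 0.092 and 0.84 ± 0.10. RAS-ERK feedback genes counted 11 rises and 5 falls of 22 (median 0.28). Dusp6, a phosphatase of ERK, measured 302, 288, 610.3 and 606 CPM at day 4, against 98.3, 129, 152 and 172 CPM at day 0 (change of 1.62 ± 0.13 on the log2 scale, adjusted p = 3.9e-05). Dusp5, Ier3 and Spred3 rose by 1.5 ± 0.15, 1.49 ± 0.18 and 0.90 ± 0.13. For Dusp6, Dusp5 and Ier3 the clone 3 libraries were the higher at day 4. Lysosome and autophagy genes counted 13 rises and 4 falls of 30, among them Sqstm1, the p62 cargo receptor (1.04 ± 0.079), Wipi1 (1.12 ± 0.10) and Neu1 (0.78 ± 0.073). Interferon-stimulated genes counted 8 rises and 4 falls of 22, with Ddx58, the RNA sensor RIG-I, up by 2.4 ± 0.19 and Gbp3 down (-1.98 ± 0.28; adjusted p = 0.0916 without the clone block). Antigen presentation counted 5 rises and 7 falls of 16: Cd274, PD-L1, rose by 1.67 ± 0.16, and Tap2, Psmb8 and Psmb9 fell by 0.87 ± 0.10, 1.1 ± 0.13 and 1.21 ± 0.16.

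Several of these list counts moved by over 1.5 times with the setting. Without the clone block 11 granule genes, 12 chemokine and inflammatory genes and 12 lineage transcription factors rose, and 9 self-renewal genes, 6 fatty acid synthesis genes and 5 G1 regulators fell. Without clone 5 the falls were 16 for complex I, 7 for cholesterol and 5 for fatty acid oxidation, and without the clone block the cholesterol falls were 10. Fatty acid oxidation also had 5 falls without the clone block and with DESeq2. Without clone 3 the rises were 12 for lineage transcription factors, 6 for dioxygenases and 4 for interferon-stimulated genes.

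**Figure D4:**
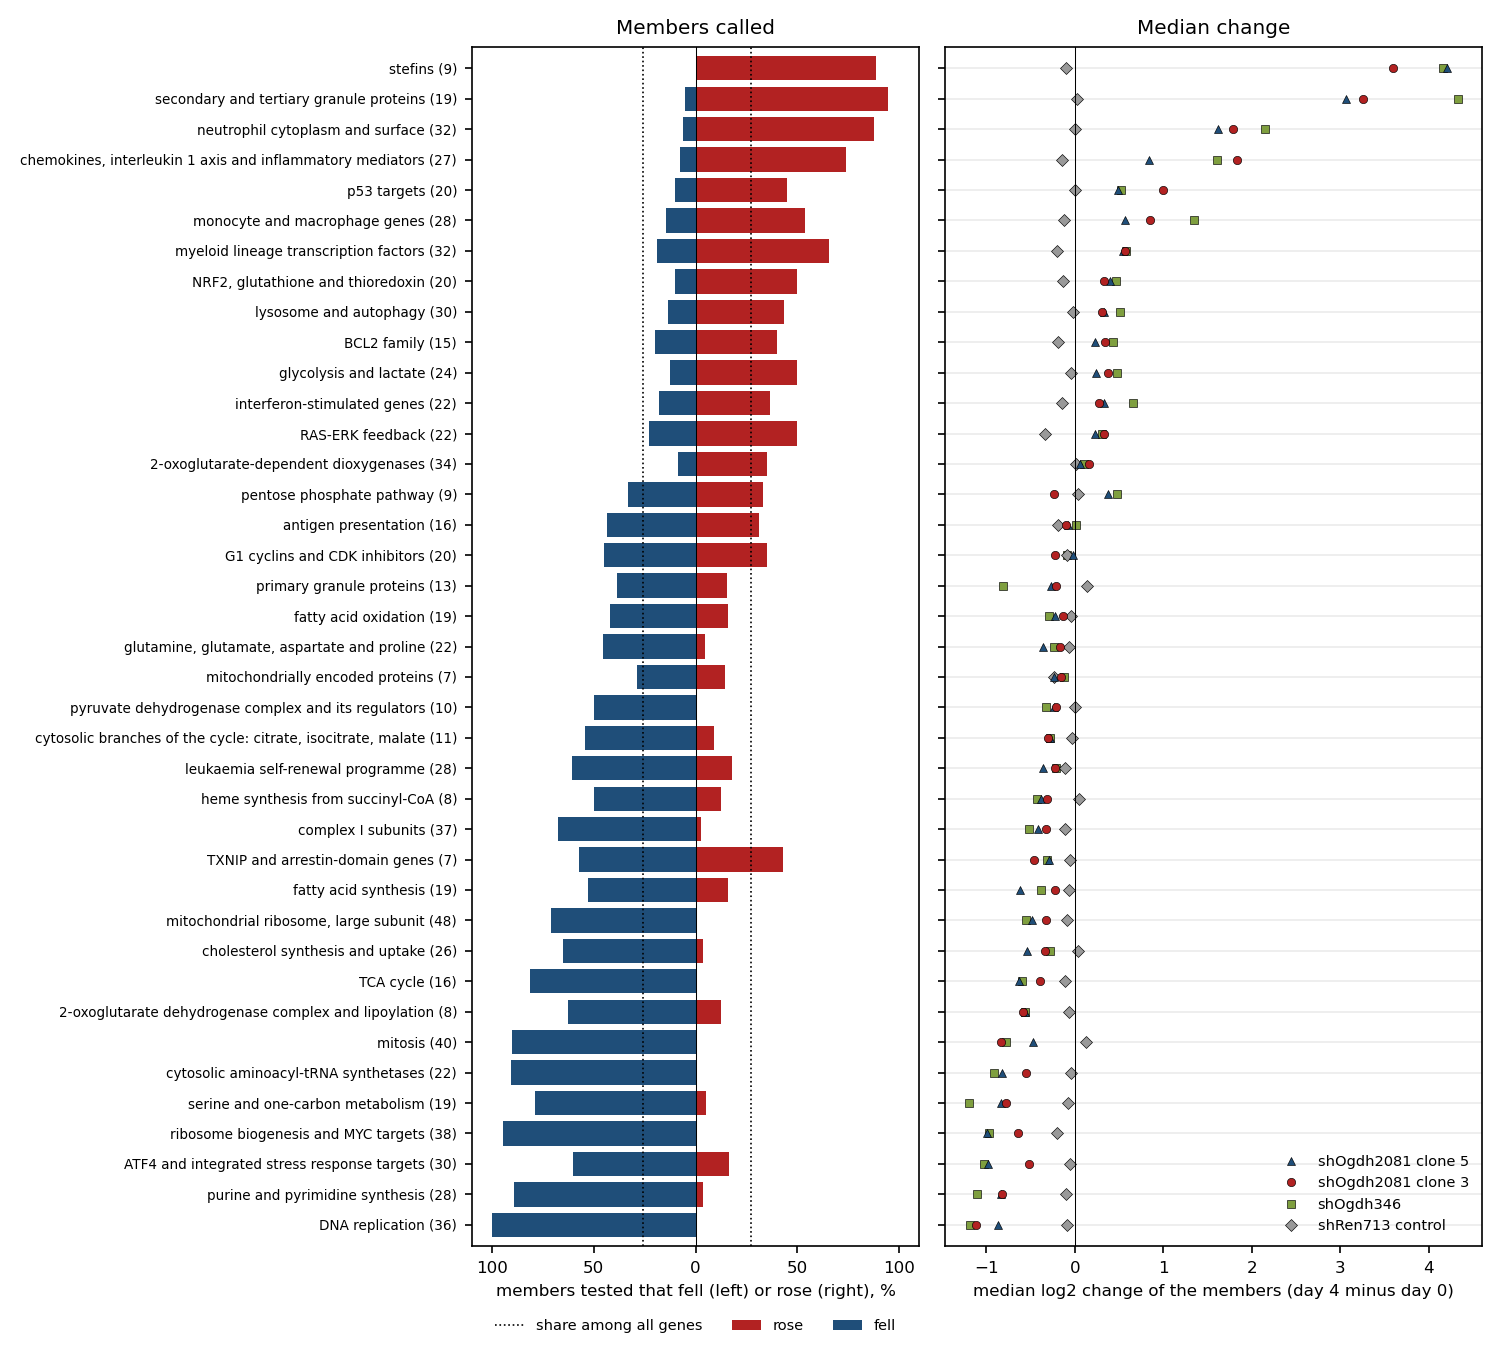
Left, share of the tested members of 39 gene lists (number in brackets) that fell or rose with shOgdh2081, with dotted lines at the shares among all genes; right, median log2 change of each list in shOgdh2081 clones 5 and 3, shOgdh346 and the shRen713 control. In clones 5 and 3 the stefin, granule and neutrophil medians lie between 1.61 and 4.21 and the DNA replication medians at -0.87 and -1.12, and the control medians lie between -0.34 and 0.14.

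Control cells received the same doxycycline, and the change of shOgdh2081 minus that of shRen713 (the net change) asks how much of the change the control does not share. With shRen713 alone 633 genes rose and 347 fell; 412 of these rises and 240 of these falls were also called with shOgdh2081, which is 65.1% and 69.2% of the control calls and 10.5% and 6.5% of the shOgdh2081 calls. The net change passed for 1933 genes that rose (13.6%) and 2025 that fell (14.2%). These counts rested on both control clones: without clone 2 they were 738 and 625, and without clone 7 they were 591 and 527. With clone and replicate number as blocks over 24 libraries they were 3319 and 3495, and without the clone block 504 and 708.

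The largest net rises that passed were Serpinb2 (net log2 change 8.19 ± 1.1, adjusted p = 0.0016), Stfa2 (6.39 ± 0.60, adjusted p = 0.0018), Egr1 (5.95 ± 0.75, adjusted p = 0.0069) and Stfa2l1 (5.65 ± 0.26, adjusted p = 1.8e-05). Egr1, an immediate early zinc finger factor, measured 171, 184, 579 and 632 CPM at day 4, against 22.5, 12.6, 41.8 and 18.3 CPM at day 0 with shOgdh2081. With the control hairpin it measured 4.74, 6.05, 3.46 and 2.17 CPM at day 4 and 21.5, 20.03, 18.2 and 8.63 CPM at day 0 (change of -2.12 ± 0.60 on the log2 scale, adjusted p = 0.12). The net call of Egr1 was lost when either control clone was left out (adjusted p = 0.12 at worst), as were those of Ighm, Gfi1b, Olfml2b and Stfa3. The net calls of Serpinb2 (adjusted p = 0.17) and Slc41a2 (adjusted p = 0.072) were lost without control clone 2, and that of Stfa2 (adjusted p = 0.081) without control clone 7. The largest net falls were Ighm (-3.75 ± 0.66, adjusted p = 0.018), P2rx3 (-3.18 ± 0.26, adjusted p = 2.0e-04), Bex6 (-3.0 ± 0.34, adjusted p = 7.4e-04) and Serpinf1 (-2.84 ± 0.36, adjusted p = 0.0011). Of the largest changes described above, Mmp9 (adjusted p = 0.085), Egr3 (0.096), Pald1 (0.079), Bcat1 (0.053), Prdx4 (0.10), Ly86 (0.064), Abcb1b (0.068) and Ccr2 (0.16) did not pass net of the control. Net of the control 14 of 19 granule genes, 28 of 32 neutrophil genes and 8 of 9 stefins rose, which ranged over 30 other settings between 3 and 17, 12 and 29, and 2 and 8. Net falls were called for 33 of 36 replication genes, 35 of 40 mitotic genes, 29 of 38 ribosome biogenesis genes, 15 of 22 synthetases, 9 of 16 TCA cycle genes and 9 of 37 complex I genes. In the other settings these were 26 to 35, 17 to 39, 8 to 37, 9 to 20, 3 to 12 and 0 to 21. The lowest of all these counts came without the clone block or without 1 control clone. Without control clone 7 edgeR called 0 complex I falls, where 8 had an unadjusted p under 0.05. For Ogdh the net change was -1.87 ± 0.21, adjusted p = 0.0013. Txnip had a net change of -0.0037 ± 0.13 (adjusted p = 0.99).

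The other Ogdh hairpin shared most of the calls. Of the shOgdh2081 rises 85.4% also rose with shOgdh346, which is 77.7% of the 4302 rises of shOgdh346, and of the falls 88.1% also fell, which is 78.0% of its 4174 falls. The direction was opposite for 5 genes that rose and 8 that fell with shOgdh2081. In a test of the difference itself 7 genes changed more upward with shOgdh2081 (0.0491%) and 8 more downward (0.0561%), and 1421 of 14249 had an unadjusted p under 0.05. These counts moved with the setting: 26 and 77 with DESeq2, 626 and 869 with clone and replicate number as blocks over 24 libraries. Without day 0 library 1 of shOgdh2081 clone 3 they were 1 and 1, and without shOgdh346 clone 5 they were 18 and 41.

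Zbtb16, the transcription factor PLZF, measured 20.9, 18.7, 17 and 15.9 CPM at day 4, against 21.97, 16.9, 24.6 and 18.9 CPM at day 0 with shOgdh2081, and 4.99, 4.85, 5.88 and 6.11 CPM at day 4 against 30.7, 18.7, 24.9 and 20.9 CPM at day 0 with shOgdh346, in clones 1 and 5. It fell with shOgdh346 and had no called change with shOgdh2081 (difference 2.02 ± 0.23, adjusted p = 0.025). Angpt1, a TIE2 ligand, changed by 0.076 with shOgdh2081 and -1.6 with shOgdh346, and Cnn3, an actin-binding calponin, by -0.29 with shOgdh2081 and -1.56 with shOgdh346. Pdgfrb, a receptor tyrosine kinase, rose with shOgdh2081 in both clones at unequal levels, with 9.61, 7.199, 64.6 and 73.05 CPM at day 4, against 3.69, 3.54, 25.7 and 30.7 CPM at day 0, against a change of -0.14 with shOgdh346. Among the genes lower with shOgdh2081, Tgm2 rose with both hairpins, by 4.78 with shOgdh2081 and 7.51 with shOgdh346 (adjusted p = 0.012). Gpnmb also rose with both, by 2.6 with shOgdh2081 and 5.29 with shOgdh346 (adjusted p = 0.0057), and in shOgdh346 clone 5 it reached 926 and 965 CPM at day 4. Rusc2 and Dab2, an endocytic adaptor, changed by -0.027 with shOgdh2081 and 2.9 with shOgdh346 and by 0.24 with shOgdh2081 and 2.46 with shOgdh346; neither had a called change with shOgdh2081. Each of these 8 differences lost its call in 2 to 8 of 30 other settings, among them the fit without the clone block.

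**Figure D5:**
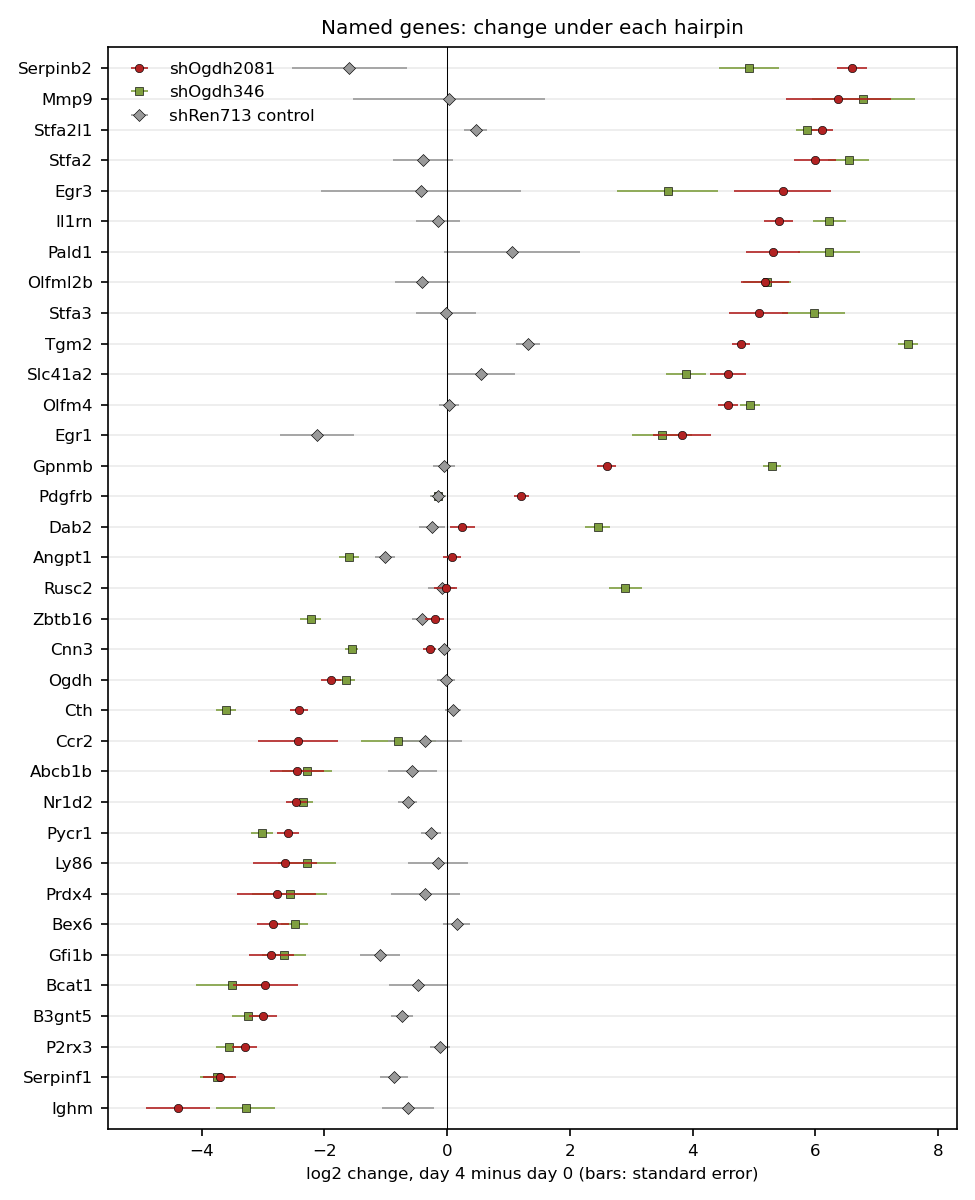
Log2 change from day 0 to day 4 of 35 named genes with shOgdh2081 (red circles), shOgdh346 (green squares) and the shRen713 control (grey diamonds), with standard errors as bars. The 2 Ogdh hairpins lie on the same side of 0 for the largest rises and falls, while Rusc2, Dab2, Zbtb16, Angpt1 and Cnn3 differ between them.

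The clones of shOgdh2081 also differed from each other. Over single libraries 354 of 12652 genes tested (2.8%) changed more upward in clone 5 than in clone 3 and 513 (4.05%) more downward. The replicates of this test are the 2 libraries of a clone and day, so its p-values cover the spread between such libraries and may be technical. With replicate number as a block the counts were 1127 and 1732, and leaving out 1 library gave 186 to 309 and 224 to 426. Cxcr2, the receptor that draws neutrophils to chemokines, measured 35.2 and 31.8 CPM in clone 5 and 6.27 and 6.64 CPM in clone 3 at day 4, against 4.81 and 6.65 CPM in clone 5 and 7.21 and 7.61 CPM in clone 3 at day 0 (difference 2.76 ± 0.39, adjusted p = 3.2e-04). Prss57, a serine protease of primary granules, measured 51.98 and 43.9 CPM in clone 5 and 7.81 and 7.4 CPM in clone 3 at day 4, against 15.7 and 12.6 CPM in clone 5 and 9.04 and 10.8 CPM in clone 3 at day 0 (difference 2.14 ± 0.22, adjusted p = 7.2e-06). Hvcn1, a proton channel, and Scnn1a, a sodium channel subunit, had differences of 2.09 ± 0.36 and 2.16 ± 0.27. These 4 genes were higher at day 4 in clone 5, and in clone 3 their day 4 libraries lay below day 0.

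Among the genes whose change was lower in clone 5, Col5a3, a collagen chain, measured 2.301 and 3.599 CPM in clone 5 and 29.4 and 32.7 CPM in clone 3 at day 4, against 8.26 and 8.597 CPM in clone 5 and 7.602 and 5.11 CPM in clone 3 at day 0 (difference -3.79 ± 0.33, adjusted p = 1.0e-06), so it moved opposite ways. Mmp9 had a difference of -3.65 ± 0.84 (adjusted p = 0.018), a call lost in 3 of 13 other settings. Ryr2, a calcium release channel, was high in clone 5 and near 0 in clone 3, with 1001 and 972 CPM in clone 5 and 1.59 and 1.52 CPM in clone 3 at day 4, against 587 and 566 CPM in clone 5 and 0 and 0 CPM in clone 3 at day 0. Kctd17 showed the same pattern, with 52.4 and 61.1 CPM in clone 5 and 1.13 and 1.52 CPM in clone 3 at day 4, against 40.6 and 42.99 CPM in clone 5 and 0 and 0 CPM in clone 3 at day 0. No count of Ryr2 or Kctd17 was found in clone 3 at day 0, so the size of their difference depends on the prior count and is not a measured fold. The clone 5 minus clone 3 difference of all genes correlated at r = 0.668 between day 4 and day 0, a description over genes that share each clone's libraries. Several named falls were deeper in clone 5: Prdx4 (difference -2.57), Ccr2 (-2.32), Abcb1b (-2.08) and Ly86 (-1.83). By list, 7 of 22 tRNA synthetases, 10 of 38 ribosome biogenesis genes and 8 of 28 monocyte and macrophage genes changed lower in clone 5 than in clone 3, and 12 of 40 mitotic genes changed higher.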

How the data were processed

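The 24 libraries were RNA-seq of polyadenylated RNA, read single-end. The deposited table holds whole-number counts of reads per gene, not normalized; the submitters' processing notes name STAR 2.6.1a and featureCounts 1.6.3, with Trimmomatic 0.36 and FastQC 0.11.5 and the builds mm10 and GRCm38. The labels' protocol text also names a human build and RPKM values, which the table does not hold, and the strand setting is not given in the sources used here. Libraries of a clone and day were summed to 12 sums and tested with edgeR 4.0.16 (R 4.3.3, limma 3.58.1) by its robust quasi-likelihood test, with TMM scaling, the default filter on low counts (14249 genes kept), the clone as block and a day 4 term per hairpin (3 residual degrees of freedom). P-values were adjusted by the Benjamini-Hochberg method over all genes tested, at 0.05. The clone difference was tested over 24 single libraries (12652 genes). Standard errors are the log2 change over the square root of the F statistic. Clone medians use log2 CPM with a prior count of 2. DESeq2 1.42.0 and other settings are in the closing section.

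Genes named are Ogdh, the 14 largest rises and 14 largest falls that passed with a mean of at least 5 CPM, the same direction in both clones and no overlap of libraries; the 4 highest and 4 lowest of the net, hairpin and clone differences; up to 4 genes of smallest p per list; and genes without a day 0 count and at least 2 CPM in every day 4 library. Predicted gene models are passed over, and a few genes that the rule gives are not reported here. Hp, S100a4, Dlst, Dld, Slc7a11, Ngp, Lcn2, Mcm3, Hoxa9, Meis1, Flt3 and Xcr1 are outside this rule and were chosen after their values were seen. The members and lists were chosen with earlier results of these data known.

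Replicate numbers were checked for pairing by whether library 2 minus library 1 deviated alike. At day 0 this held between all 15 pairs of clones (0.387 to 0.497), at day 4 it did not (-0.00325 to 0.081), and within a clone it did not hold across days (0.0191 in clone 5 and -0.00889 in clone 3). The fit with clone and replicate block therefore stands as an alternative, with 4584 rises and 4241 falls of shOgdh2081.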

Additional observations from a re-analysis of the deposited data

Results flagged for a closer look

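In 4 of 90 groups of 4 libraries (45 named genes, each day), 1 library stood apart from the other 3 by Dixon's criterion, which chance gives in about 1 in 20 groups. All 4 were day 0 library 1 of clone 3, which was the highest of its group at 17.8 CPM for Stfa2l1, 9.57 CPM for Il1rn, 0.655 CPM for Pald1 and 1.31 CPM for Slc41a2.

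The change differed between clone 5 and clone 3 for named genes, as a log2 difference of clone 5 minus clone 3. It was 2.76 for Cxcr2, 2.16 for Scnn1a, 2.14 for Prss57 and 2.09 for Hvcn1. It was -0.66 for Ogdh, -0.39 for Cnn3, -1.34 for Olfml2b, -1.83 for Ly86, -2.08 for Abcb1b, -2.32 for Ccr2, -2.57 for Prdx4, -3.65 for Mmp9 and -3.79 for Col5a3. For Ryr2 (-6.25) and Kctd17 (-6.29) clone 3 had no day 0 count, and these fitted values depend on the prior count.

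The change also differed between the Ogdh hairpins, as shOgdh2081 minus shOgdh346 on the log2 scale. It was 2.02 for Zbtb16, 1.67 for Angpt1, 1.35 for Pdgfrb and 1.27 for Cnn3, and -2.21 for Dab2, -2.69 for Gpnmb, -2.73 for Tgm2 and -2.93 for Rusc2.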

How the results depend on the processing

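Of 176 named genes called in the shOgdh2081 change, 148 kept the call in all 21 other settings, 0 reversed, and 23 lost it without the clone block. Leaving out 1 library or clone gave 2914 to 3857 rises and 2781 to 3682 falls, and without the clone block 2488 genes rose. The change of Ogdh ranged between -2.23 and -1.60. mt-Nd6, which was not called (-0.24), reversed to 0.14 with day 0 libraries of number 2 alone, and the Ogdh difference from shOgdh346, also not called (-0.24), reversed to 0.062 without shOgdh2081 clone 5 and lay between -0.57 and that value with 1 library or clone left out. The net counts of rises and falls were 504 and 708 without the clone block, 3319 and 3495 with clone and replicate block, and 591 to 1903 and 527 to 2136 with 1 library or clone left out. The counts higher and lower than shOgdh346 were 626 and 869 with clone and replicate block, 238 and 454 over libraries with no replicate block, 26 and 77 with DESeq2 and 138 and 271 with no filter on low counts. Without the clone block they were 0 and 0 by edgeR, where 250 and 204 genes had an unadjusted p under 0.05. The lower count was 13 with RLE scaling, 13 with at least 1 CPM in at least 4 sums, 35 and 15 with day 0 libraries of number 1 or number 2 alone, and 5 with no scaling; with 1 library or clone left out the counts were 1 to 18 and 1 to 41. The clone difference counts were 1127 and 1732 with the replicate block and 186 to 309 and 224 to 426 with 1 library left out. The cause of these shifts was not tested. Depth limits genes near the floor of 3 counts over the 4 day 0 libraries, which gives lower bounds alone.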
